A study of Mus musculus and Homo sapiens with 18 samples.

Results

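Lens-determining transcription factors are the DNA-binding proteins that assign the lens its identity and later run its epithelial and fibre programmes. The 10 genes described here are Pax6, Six3, Sox1, Sox2, Foxe3, Pitx3, Prox1, Maf, Mafg and Hsf4. They were taken by symbol, with no filter on their values, from the 46882 genes of the lens table, the 54838 of the NLPC table and, as upper-case human symbols, the 60880 of the HLE-B3 table, and each table held all 10. The list was made with earlier results of these data known. RNA was sequenced from 3 systems, in 6 libraries each split evenly between control and deletion, and each system asks what the loss of Qki, an RNA-binding protein of the STAR family that the mouse Qk and human QKI genes encode, changes. Lenses came from Nestin-CreERT2; QkL/L mice (Qk-iCKO) and from controls (Ctrl) that the labels give as Nestin-CreERT2; QkL/+, so the controls carry the Cre transgene and 1 floxed allele. Both received tamoxifen at P7 and P8, and the lenses were taken at P17-19. The Nestin promoter limits Cre to cells that express Nestin, and lens epithelium and fibres were not separated. NLPCs are lens progenitor-like cells differentiated with Noggin and then bFGF, BMP4 and BMP7 from neural stem cells of newborn Nestin-CreERT2; QkL/L brains, labelled WT, or Qk-/- after 4-hydroxytamoxifen. HLE-B3 is an immortalised human lens epithelial line, and its QKI KO cells are a puromycin-selected population made by CRISPR/Cas9, not stated to be a clone.

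In the eye, Pax6 and Six3 are required for the eye field and the lens placode, and Sox2 acts with Pax6 to switch on the first crystallins. Foxe3 and Pitx3 keep the lens epithelium alive and dividing, while Sox1, Prox1, Maf and Hsf4 act in fibre cells, where they drive crystallin genes, cell cycle exit and, for Hsf4, the removal of organelles. Mafg is a small Maf protein without an activation domain of its own that pairs with other basic leucine zipper factors, and mutations in several of these genes cause cataract in mice and people.

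Between 10319320 and 16425331 reads were counted on genes per lens library, 28154202 to 68243360 per NLPC library and 69190864 to 81384471 per HLE-B3 library. The targeted gene was read first. Normalized counts of Qk (raw counts scaled by edgeR's TMM factors) were 1524, 1466 and 1609 in Ctrl lenses and 1271, 1100.2 and 1339 in Qk-iCKO lenses, and QKI in HLE-B3 cells went from 19382, 19299 and 18910.5 to 7374, 7747 and 7555. In NLPCs the counts went against the labels, with Qk at 138442, 126491 and 131523 in WT libraries and 186306, 159835 and 181701 in libraries labelled Qk-/- (log2 fold change 0.41, adjusted p = 0.027 from edgeR, and between 0.0949 and 0.173 without WT 1, 2 or 3 or Qk-/- 1 or 3). The lens difference of -0.31 did not pass (adjusted p = 0.20). The gene total includes reads outside the floxed exon and so does not measure the deletion itself. Markers were also set beside the labels. In NLPCs the summed normalized count of 12 lens fibre markers was 55 to 246. The 6 lens epithelium markers summed to 9749 to 13101, although Foxe3, 1 of them, had 0 to 1 counts. Most of that sum was Pax6 (mean 4297 in WT NLPCs), Pdgfra (3729) and Npnt (1601), and Cdh1 had a mean of 3.24. Over all NLPC libraries 8 neural stem markers, Pax6 again among them, summed to 217650 to 275311 and 7 astrocyte markers to 408343 to 587539. In HLE-B3 cells the lens fibre sum was 260.1 to 608 and CRYAA and CRYGD were at 0. Lens Qk-iCKO 1 (crystallins 56.3% of counts, against 64.7 to 66.9% in the other 5) and NLPC Qk-/- 2 (mean correlation with the other libraries 0.892, against 0.948 to 0.957) stood apart, and the results that rest on them are given with and without them.

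In Ctrl lenses 3 of the fibre factors, Hsf4, Maf and Prox1, led the order of levels, while Sox1 stood below Pitx3. Levels are given as TPM (counts divided by merged exon length and scaled to the same sum in each library), which allows different genes to be compared within a library. Hsf4 had 139 ± 3.56 TPM (SD, n = 3), Maf 75.8 ± 10.5, Prox1 54.6 ± 3.88, and in these upper ranks the libraries of neighbouring genes did not overlap. Pitx3 (33.9 ± 2.66 TPM), Sox1 (32.2 ± 4.3) and Foxe3 (27.9 ± 6.84) followed, each overlapping its neighbour in that order. Sox2 (13.3 ± 1.61 TPM) and Mafg (11.1 ± 0.546) overlapped too, and Pax6 (7.2 ± 0.50) and Six3 (0.762 ± 0.138) were lowest. Hsf4, Maf and Prox1 lay at percentiles 98.2 to 99.3 of the 20174 genes detected in Ctrl lenses, and Six3 at percentile 53.7. The order was the same with crystallins left out of the total, which raised every lens value by a factor of 4.3. Pax6 is divided by a merged length of 11694 bases, longer than its usual mRNA, so its level per length is understated.

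**Figure D1:**
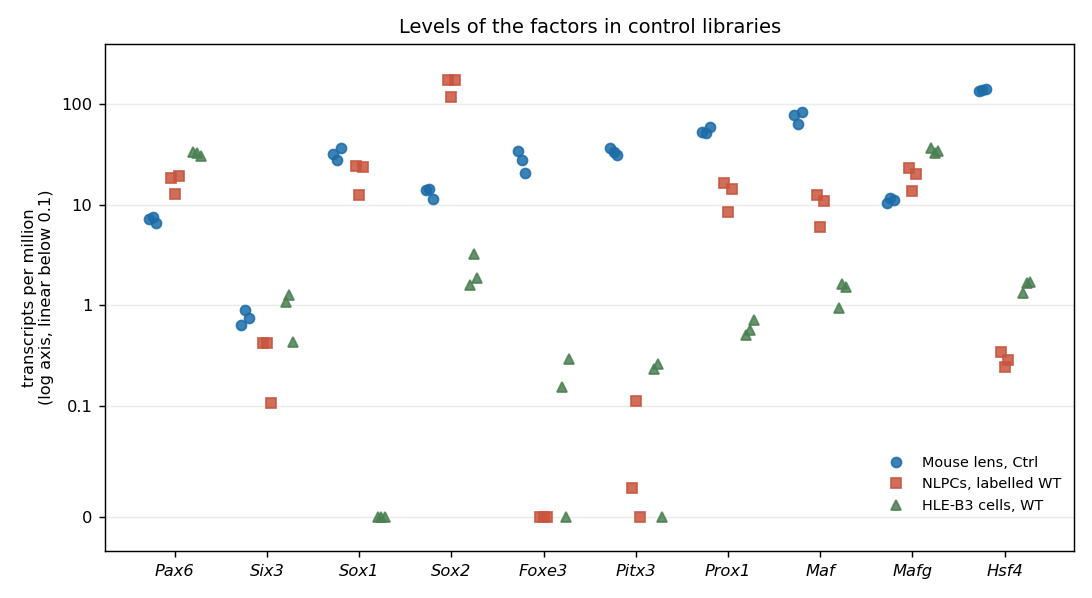
Levels of the 10 factors in TPM (log axis, linear below 0.1) in the 3 control libraries of each system, 1 point per library. Hsf4, Prox1, Maf, Pitx3, Foxe3 and Sox1 were highest in the lens, Sox2 was highest in NLPCs, and MAFG and PAX6 led in HLE-B3 cells. Between systems the values also depend on scaling, as leaving out crystallins raised lens values by a factor of 4.3.

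In WT NLPCs, Sox2 made up most of the summed level of the 10 factors, with 157 ± 33.7 TPM (SD, n = 3), 66.2% of the sum. Sox1 (20.3 ± 6.59 TPM), Mafg (19.2 ± 4.88), Pax6 (17.1 ± 3.58), Prox1 (13.1 ± 4.14) and Maf (9.83 ± 3.43) came next, each overlapping its neighbour. Six3 (0.317 ± 0.182 TPM) and Hsf4 (0.291 ± 0.0486) were under 1, Pitx3 had 5 counts over the 3 WT libraries, and Foxe3, the epithelial forkhead factor, had 0. A count of 0 in that table needs care, since 11 of 6654 genes with at least 50 counts in every lens library, S100a11 among them, were listed at 0 in all 6 NLPC libraries. In WT HLE-B3 cells MAFG (34.4 ± 1.98 TPM) and PAX6 (32.4 ± 1.33) stood above the others and overlapped each other. PAX6 is divided by a merged length of 20639 bases and MAFG by 5241, so PAX6 is understated here as in the mouse. Their mean normalized counts in WT cells were 10799 for PAX6 and 2910 for MAFG, so their order depends on the length used. SOX2 (2.24 ± 0.888 TPM), HSF4 (1.57 ± 0.224), MAF (1.37 ± 0.381), SIX3 (0.921 ± 0.436) and PROX1 (0.597 ± 0.10) formed a run in which every neighbour overlapped the next. PITX3 and FOXE3 had at most 10 counts in any library, and SOX1 had 0 in all 6. Zeros in HLE-B3 cells need the same care, since 35 of 6258 genes with at least 50 counts in every lens library were at 0 there.

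The 2 mouse systems were compared in a joint fit of 16675 genes. All 10 factors differed between Ctrl lens and WT NLPCs at an adjusted p under 0.05, as did 69% of all genes tested (30.3% higher and 38.7% lower in the lens), so that count is read against a high background. Foxe3 and Pitx3, too low to test in NLPCs alone, passed the filter only through their lens counts. Their difference was thus set in advance, and the count rests on the other 8. The sizes varied widely. Relative to WT NLPCs, the log2 difference in Ctrl lenses was 11.73 for Hsf4, 5.85 for Maf, 4.95 for Prox1, 4.03 for Six3 and 3.56 for Sox1. Pitx3, with 5 counts over the WT NLPC libraries and 0 in WT 3, had a fitted difference of 12.23 (95% interval 10.96 to 13.49), which ran from 11.57 without NLPC WT 3 to 13.69 without WT 2. With TMM scaling Foxe3 was at least 4371-fold higher in the lens, taking 3 counts over the 3 WT NLPC libraries as the floor. That bound holds for this scaling only, and the 0 of Foxe3 in NLPCs needs the care described above. Sox2, at -0.71 (95% interval -1.11 to -0.31, adjusted p = 0.00445), was the 1 factor lower in the lens. These sizes depend on how the crystallin-filled lens libraries are scaled: with scaling to total counts alone the median of all genes moved from -0.32 to -2.32, Pax6 turned from 1.61 to -0.40, Mafg went from 2.08 to 0.07 (adjusted p = 0.762), and the other 8 kept their direction, Six3 at 2.04 and Prox1 at 2.93. Tissue and table differ together with the system, so their parts cannot be told apart.

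In the lens, 1 of the 10 factors fell after the deletion and the other 9 did not pass the test. The 1 that fell was Mafg (chr11:120625117-120633600 of GRCm38), the small Maf partner. Its normalized counts were 630.4, 632 and 673 in Ctrl lenses and 439, 349 and 427 in Qk-iCKO lenses. Every Qk-iCKO library lay below every Ctrl library, and the mean fell by 37.2% (log2 fold change -0.67, standard error 0.14, adjusted p = 0.0223 from edgeR's quasi-likelihood test). Over all 12201 genes tested 12.3% were called, 3.88% lower and 8.38% higher, so 1 of 10 is near that background. At an unadjusted p under 0.05 it was again 1 of 10, beside 28.7% of all genes. An exact permutation test of 3 against 3 cannot go below p = 0.10, the value Mafg reached. The call was lost with scaling to total counts alone (-0.36, adjusted p = 0.453, where the median of all genes was 0.29), and without Ctrl 1, 2 or 3 or Qk-iCKO 2 in turn (adjusted p = 0.0863, 0.0818, 0.0919 and 0.0506), with log2 fold changes from -0.73 to -0.58 over the libraries left out. In bulk tissue, fewer cells of a type and less RNA per cell cannot be told apart.

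The eye-field and placode factors did not pass the test. Pax6, the factor at the head of the eye programme, had normalized counts of 908, 864 and 833 in Ctrl and 809, 953 and 778 in Qk-iCKO lenses. The groups overlapped, and the 95% interval of the log2 fold change (-0.04) ran from -0.36 to 0.29. Six3, a repressor that protects the anterior eye from Wnt signals, had 36.7, 47.8 and 43.4 in Ctrl and 130.5, 42.9 and 47.3 in Qk-iCKO lenses. Qk-iCKO 1 alone was high, and without it the log2 fold change went from 0.81 (adjusted p = 0.272) to 0.08 (adjusted p = 0.876). In the same library the summed normalized count of 6 pigment and ciliary epithelium markers was 1817, against 305 to 490.1 in the other 5, and its part in the Six3 count was not tested. Sox2, the early partner of Pax6, had 307, 285 and 251 against 185, 284 and 357, with Qk-iCKO libraries on both sides of the Ctrl libraries.

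The epithelial factors were lower on average without passing. Foxe3 had normalized counts of 319.9, 235 and 195 in Ctrl and 97.9, 180.1 and 229 in Qk-iCKO lenses, again with Qk-iCKO 1 at the extreme, and its log2 fold change of -0.57 (95% interval -1.33 to 0.18, adjusted p = 0.288) was -0.29 without that library. Pitx3, a homeodomain factor of the lens epithelium, had 597, 496 and 513 against 479, 426 and 477. Like Mafg it had no overlap between groups, which 35.3% of all genes share (17.1% lower and 18.2% higher), and its log2 fold change was -0.22 (adjusted p = 0.345). It turned to 0.09 with scaling to total counts alone.

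The fibre factors Maf, Prox1, Hsf4 and Sox1 did not pass either. Maf, which drives crystallin genes and fibre elongation, had normalized counts of 6905, 5108 and 7457 in Ctrl and 4407, 4422 and 7554 in Qk-iCKO lenses (log2 fold change -0.25, 95% interval -0.88 to 0.38, adjusted p = 0.592). Prox1, a homeodomain factor of fibre differentiation, had 4699, 4236 and 5308 against 4892, 4725 and 6666 (0.19, interval -0.27 to 0.65). Hsf4, the lens heat shock factor, had 2518, 2358 and 2665 against 1685, 2815 and 2821 (-0.04, interval -0.56 to 0.48), and Sox1 1657, 1304 and 1888 against 963, 1096 and 1806 (-0.33, interval -0.95 to 0.29). In each of these 4 the groups overlapped, and Qk-iCKO 1 was the lowest library for Hsf4, Sox1 and Maf. The median log2 fold change of the 10 factors was -0.13, beside 0.00642 for all genes tested. Leukocyte markers moved with the groups: 5 of 5 tested rose, and all 6 summed to 19.9 to 44.3 in Ctrl and 977 to 1390.5 in Qk-iCKO lenses. Their part in these values was not tested.

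**Figure D2:**
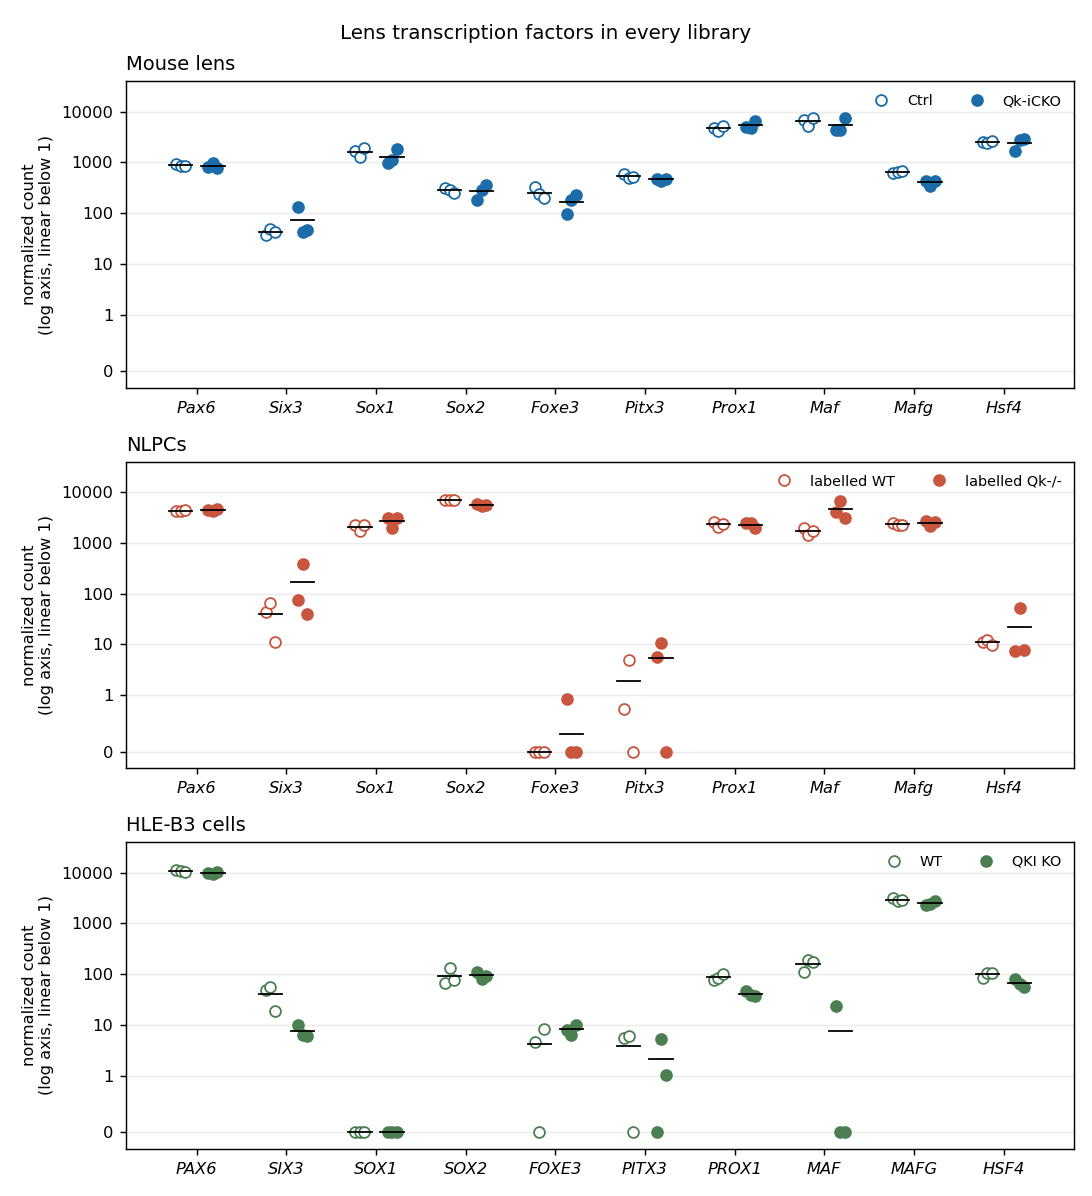
Normalized count of each factor (log axis, linear below 1) in every library of the 3 systems, with control libraries open, deletion libraries filled and black lines at the group means. Six3 in lens Qk-iCKO 1, Six3 and Hsf4 in NLPC Qk-/- 2, and MAF in the QKI KO libraries lie farthest from the rest of their panels.

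In NLPCs, Maf rose and Sox2 fell in libraries labelled Qk-/-. Maf (chr8:115682942-115707794 of GRCm38) had normalized counts of 1971, 1409 and 1740.1 in WT libraries and 4002, 6639 and 3122 in libraries labelled Qk-/-. All 3 labelled Qk-/- libraries lay above all WT libraries, Qk-/- 2 farthest, and the mean was 2.68-fold higher (log2 fold change 1.42, standard error 0.27, adjusted p = 0.0142). Without Qk-/- 2 it was 1.06 (adjusted p = 0.000793). The call was lost without WT 1, 2 or 3 in turn (adjusted p = 0.0524, 0.0737 and 0.0818). Of the 8 factors with enough counts to be tested in NLPCs 2 were called, beside 10.7% of all 20371 genes tested (4.74% higher and 5.96% lower). The groups of these 2 did not overlap, which held for 35.2% of all genes, and an unadjusted p under 0.05 was reached by the same 2, beside 26.4%.

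Sox2 (chr3:34650405-34652461 of GRCm38), which maintains neural stem cells as well as the early lens, had normalized counts of 6829, 6898 and 7091 in WT and 5695, 5277 and 5449.6 in labelled Qk-/- libraries. The spread within each group was small, the groups did not overlap, and the mean fell by 21.1% (log2 fold change -0.34, standard error 0.08, adjusted p = 0.0289). Markers of other cell types moved with it: 6 oligodendrocyte lineage markers summed to 42400.4 to 49184 in WT and 19350.0 to 36494 in labelled Qk-/- libraries, with 3 of 6 lower and none higher. Of 7 astrocyte markers 2 fell (Gfap at a log2 fold change of -1.38 and Slc1a3 at -1.66), Aqp4 rose (0.74) and 4 did not pass, and their sum was 577256 to 587539 in WT and 408343 to 586862 in labelled Qk-/- libraries. Their part in the Sox2 count was not tested. With the replicate number as a block, the adjusted p for Sox2 was 0.0524. The call was also lost on total-count scaling (0.0811) and when all genes having a count were tested (0.0847). It was lost as well without WT 1, 2 or 3 or Qk-/- 1 or 3 in turn (0.13, 0.107, 0.185, 0.0862 and 0.0763). The log2 fold change stayed between -0.38 and -0.29 in these fits.

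The remaining factors of the NLPCs did not pass. Pax6 varied little, with normalized counts of 4150.0, 4306 and 4436 in WT and 4397, 4186 and 4557 in labelled Qk-/- libraries, and the 95% interval of its log2 fold change was -0.16 to 0.22. The interval was -0.33 to 0.28 for Prox1 and -0.15 to 0.38 for Mafg. Sox1, a neural and fibre factor of the same family as Sox2, had 2224, 1746 and 2248 against 3102, 1993 and 3023. Its log2 fold change was 0.39 (adjusted p = 0.229), and 0.57 (adjusted p = 0.0064) without Qk-/- 2. Six3 and Hsf4 were high in Qk-/- 2 alone. Six3 had 43.9, 64.8 and 11.3 against 76.1, 391 and 39.3, and its log2 fold change went from 2.07 (adjusted p = 0.202) to 0.55 without that library, while with all genes having a count tested its adjusted p was 0.0282. Hsf4 had 11.4, 12.2 and 9.79 against 7.43, 51.3 and 7.86, and turned from 0.96 to -0.53. Foxe3 (1 count in 6 libraries) and Pitx3 (5 counts in WT and 12 in labelled Qk-/- libraries) were too low to test.

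In HLE-B3 cells 4 of the 7 factors tested fell in QKI KO cells and none rose. Over all 19049 genes tested 33.3% were called, 16.3% lower and 17% higher. The groups of 5 factors did not overlap, all lower, beside 22.6% of all genes lower and 22% higher in this way, and 5 had an unadjusted p under 0.05, beside 41.3%. MAF (chr16:79619740-79634634 of GRCh37) changed most among the factors. Its normalized counts were 108, 187 and 169 in WT libraries and 23.1, 0 and 0 in QKI KO libraries, from 470 raw counts in WT and 23 in QKI KO libraries in all. KO 1 held all 23, and the mean was 19.6-fold lower by the fit (log2 fold change -4.29, standard error 0.79, adjusted p = 0.000442 from edgeR). Without KO 1 both QKI KO libraries were at 0, which gives a difference of at least 99.7-fold against a floor of 3 counts over both. The Wald test of DESeq2 gave an adjusted p of 0.112. The 50 nearest tested genes on chromosome 16 had a median log2 fold change of -0.22, with 36 of 50 below 0. The median of all genes tested was -0.020. Around the other called factors 25 (SIX3), 24 (PROX1) and 24 (MAFG) of 50 were below 0. Whether the neighbours bear on MAF was not tested.

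SIX3 (chr2:45168841-45173210 of GRCh37) had normalized counts of 47.7, 55.5 and 18.5 in WT and 10, 6.39 and 6.03 in QKI KO libraries. All QKI KO libraries were below all WT libraries, although WT 3 was far below the other 2 WT libraries, and it was 5.34-fold lower (log2 fold change -2.42, standard error 0.68, adjusted p = 0.0113). It was lost without WT 1 (adjusted p = 0.0551) or WT 2 (0.0779). PROX1 (chr1:214156524-214214853 of GRCh37) had 74.8, 82.7 and 99.4 against 47.2, 38.3 and 37.2. The QKI KO libraries lay close together under all WT libraries, and the mean was 2.09-fold lower (log2 fold change -1.06, standard error 0.37, adjusted p = 0.0353). The call for PROX1 was lost with all genes having a count tested (0.0974) and without WT 2 or 3 or KO 1, 2 or 3 in turn (0.0688, 0.115, 0.0506, 0.0772 and 0.106). MAF, SIX3 and PROX1 were low genes here, each under 2 TPM in WT cells.

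MAFG (chr17:79876146-79885611 of GRCh37) led the order by TPM in WT HLE-B3 cells together with PAX6. Its normalized counts were 3148, 2757 and 2825 in WT and 2273, 2414 and 2732 in QKI KO libraries. The groups were separate by a narrow margin, between WT 2 and KO 3, and the mean fell by 15% (log2 fold change -0.24, standard error 0.08, adjusted p = 0.0377, and 0.050 from DESeq2). Leaving out any library but KO 3 lost the call (adjusted p from 0.0524 without WT 2 to 0.22 without WT 1), with log2 fold changes of -0.16 without WT 1 and -0.17 without KO 1. PAX6 had 11439, 10851 and 10107 against 9876, 9318 and 10154. Its groups overlapped, and its log2 fold change of -0.14 (95% interval -0.27 to -0.01) had an adjusted p of 0.0911, and of 0.0143 with scaling to total counts alone. HSF4 had 84.7, 106 and 107 against 80.3, 63.9 and 55.2 (log2 fold change -0.57, adjusted p = 0.201), its groups apart like those of 44.6% of all genes. SOX2 had 65.8, 132 and 74.8 against 110.4, 81 and 90.4, with a wide interval of -0.67 to 0.77. Over these genes the number called was 1 without WT 2 and 2 without WT 1, WT 3, KO 1 or KO 2, and it was 2 with DESeq2 and 2 among genes with at least 10 counts in every library. The summed count of 5 mesenchyme markers was 278877 to 284560.0 in WT and 135029 to 158746 in QKI KO libraries. Most of that sum was COL1A1 (mean 253354 in WT and 132304 in QKI KO libraries). Of 4 mesenchyme markers tested 3 fell and 1, LUM, rose (log2 fold change 0.53). The part of these markers in the values of the factors was not tested.

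**Figure D3:**
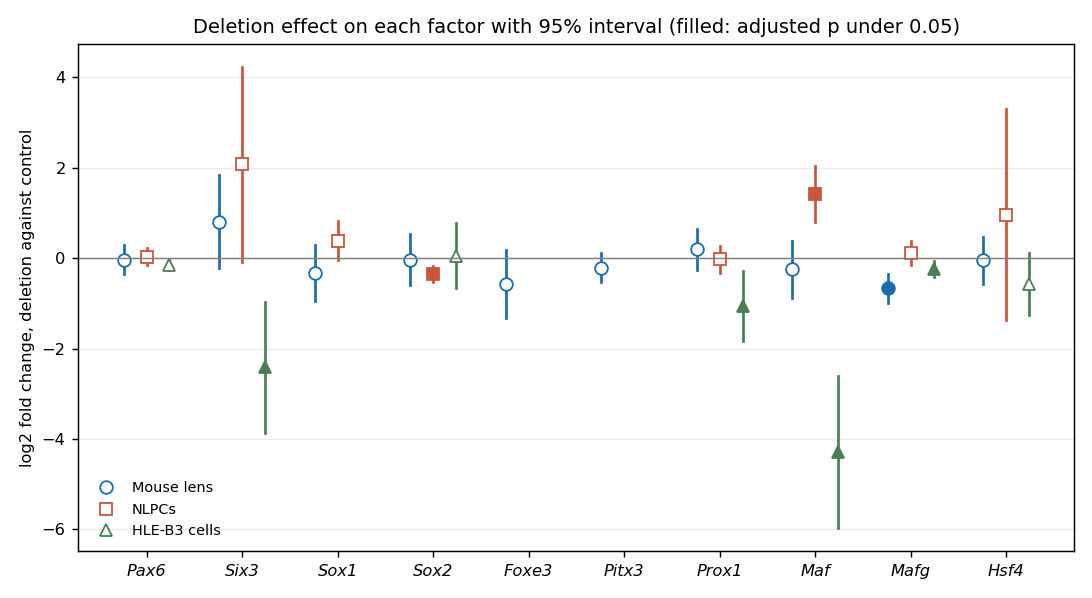
Log2 fold change of each tested factor, deletion against control, with its 95% interval from edgeR, for the lens (circles), NLPCs (squares) and HLE-B3 cells (triangles), filled where the adjusted p was under 0.05. Maf was above 0 in NLPCs and far below 0 in HLE-B3 cells, Mafg was below 0 in the lens and HLE-B3 cells, and Pax6 stayed near 0 in each system.

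Whether the deletion acted differently in the 2 mouse systems was tested as an interaction in the joint fit. The difference passed for 2 of the 10 factors, beside 8.53% of all genes tested (3.21% higher and 5.33% lower in NLPCs). Foxe3 and Pitx3 are among the 10, although they were too low in NLPCs for a deletion effect to be tested there. For Mafg, which fell in the lens and had a log2 fold change of 0.11 in NLPCs, the effect in NLPCs minus that in the lens was 0.88 (standard error 0.17, adjusted p = 0.00779), and it passed without each of the 12 libraries in turn but not with all genes having a count tested (adjusted p = 0.0537). For Maf, which rose in NLPCs and was at -0.25 in the lens, the difference was 1.79 (standard error 0.44, adjusted p = 0.0251). It was lost without lens Ctrl 1 (0.0612), Ctrl 3 (0.0649) or Qk-iCKO 2 (0.0553) and without NLPC WT 2 (0.0685) or WT 3 (0.0631). With scaling to total counts alone both calls were lost (Maf 1.47, adjusted p = 0.0582 and Mafg 0.52, adjusted p = 0.342). Sox1, with a difference of 0.81 (adjusted p = 0.17), passed with the replicate number as a block (adjusted p = 0.038) and without lens Qk-iCKO 3 (1.12, adjusted p = 0.0369). HLE-B3 cells are human and were not tested against the mouse systems, where MAF at -4.29 stands beside Maf at 1.42 in NLPCs.

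QKI proteins bind RNA at a short element whose core is the hexamer ACTAAC or ACTAAT in DNA letters, often in 3' untranslated regions. The longest annotated 3' untranslated region of each factor was searched for both hexamers on the sense strand. In the mouse, Maf held 2 in 4316 bases, Prox1 2 in 5185 and Sox2 1 in 1086, and Pax6, Sox1, Mafg, Hsf4, Pitx3 and Six3 held none, while Foxe3 had no annotated region. In the human genome MAF, PROX1 and PAX6 held 2 each, SOX2 and MAFG held 1 each, and SOX1, FOXE3, HSF4, PITX3 and SIX3 held none. The density over all genes was 0.36 sites per 1000 bases in the mouse and 0.35 in the human annotation, beside 0.46 for Maf and 0.45 for MAF. In the first 1000 bases, 28.55% of mouse and 26.49% of human genes held a site, beside 3 of 7 mouse and 0 of 7 human factors with a region of that length. Some sites of factors called here are shown with the hexamer in capitals: the pair conserved in Sox2, those of PROX1 and MAFG, and 1 of MAF. The mouse Sox2 site lies at chr3:34652353-34652378 of GRCm38 and the human SOX2 site at chr3:181432116-181432141 of GRCh37, both on the plus strand, and 25 of 26 bases are the same. The human PROX1 sites lie at chr1:214210947-214210972 and chr1:214211053-214211078 on the plus strand of GRCh37. The human MAF site at chr16:79630465-79630490 and the MAFG site at chr17:79876871-79876896 lie on the minus strand of GRCh37. The MAF site shares 25 of 26 bases with a site of mouse Maf, and it is shown because it is the 1 conserved ACTAAC site of the factor that changed most.
Sox2, mouse: atatatttgaACTAATaccatcctta
SOX2, human: atatatttgaACTAATatcatcctta
MAF, human: atcttgagttACTAACtaaccacgcg
PROX1, human, first site: catccaggggACTAACagggcctcgc
PROX1, human, other site: ctcacactctACTAATgcacagagtc
MAFG, human: tgtctgagagACTAATgcctgtcctg
Mafg, the factor that fell in the lens, held no such hexamer in 4167 bases, and Maf, which holds the conserved site in both species, rose in NLPCs, fell in HLE-B3 cells and did not pass in the lens. A match is a description of the letters and not evidence of binding.

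Several factors share their locus with a noncoding gene, and these were read because the annotation places them there, after the values of the factors were known. Among all genes overlapping a factor, 1 of 5 tested fell in the lens, beside 12.3% of all genes called. In NLPCs 1 of 5 rose and 1 fell, beside 10.7%, and in HLE-B3 cells 2 of 4 fell, beside 33.3%. Sox2ot spans Sox2 on the same strand. In the lens Sox2ot had normalized counts of 786, 783 and 699 in Ctrl and 368, 420.2 and 383 in Qk-iCKO lenses. All 3 Qk-iCKO libraries were well below the Ctrl range (log2 fold change -0.95, adjusted p = 0.00515), while Sox2 itself was at -0.04. In NLPCs Sox2ot rose from 1757, 1387 and 1464 to 2461, 2216 and 2156 (log2 fold change 0.57, adjusted p = 0.026), where Sox2 fell. Reads from the stretch that Sox2 and Sox2ot share lie on 1 strand, and how they were divided between the pair was not tested. Sox1ot, which overlaps Sox1, fell in NLPCs from 510.1, 562 and 618 to 202, 306 and 254 (log2 fold change -1.15, adjusted p = 0.00857), where Sox1 was at 0.39. In HLE-B3 cells PAUPAR, antisense to PAX6, fell from 56.7, 62.5 and 64.6 to 13, 6.39 and 21.1 (log2 fold change -2.17, adjusted p = 0.00561). ELP4, a coding gene on the opposite strand of PAX6, fell too (-0.59, adjusted p = 9.90e-05).

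In the lens, the antisense gene Six3os1 had normalized counts of 662, 717 and 752 in Ctrl and 544, 513 and 463 in Qk-iCKO lenses, far above Six3 itself, and its log2 fold change of -0.49 did not pass (adjusted p = 0.0557). Unlike Six3, Six3os1 was not raised in Qk-iCKO 1. Prox1os had 885, 877 and 1008 against 578, 744 and 579 (log2 fold change -0.54, adjusted p = 0.0643), beside Prox1 at 0.19. Its groups did not overlap, which held for 35.3% of all lens genes tested (17.1% lower). The call for Sox2ot in the lens was lost with scaling to total counts alone (adjusted p = 0.0982). In NLPCs, the call for Sox2ot was lost without WT 1, 2 or 3 or Qk-/- 1 or 3 in turn (0.0518, 0.116, 0.169, 0.116 and 0.0628), and that for Sox1ot without WT 3 (0.0654). The libraries were stranded, but the strand setting of the counting is not given in the sources used here, and without it reads of a gene and of its antisense partner cannot be told apart. Mafg and Sirt7 also overlap on the same strand, with Sirt7 at a log2 fold change of 0.40 in the lens.

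**Figure D4:**
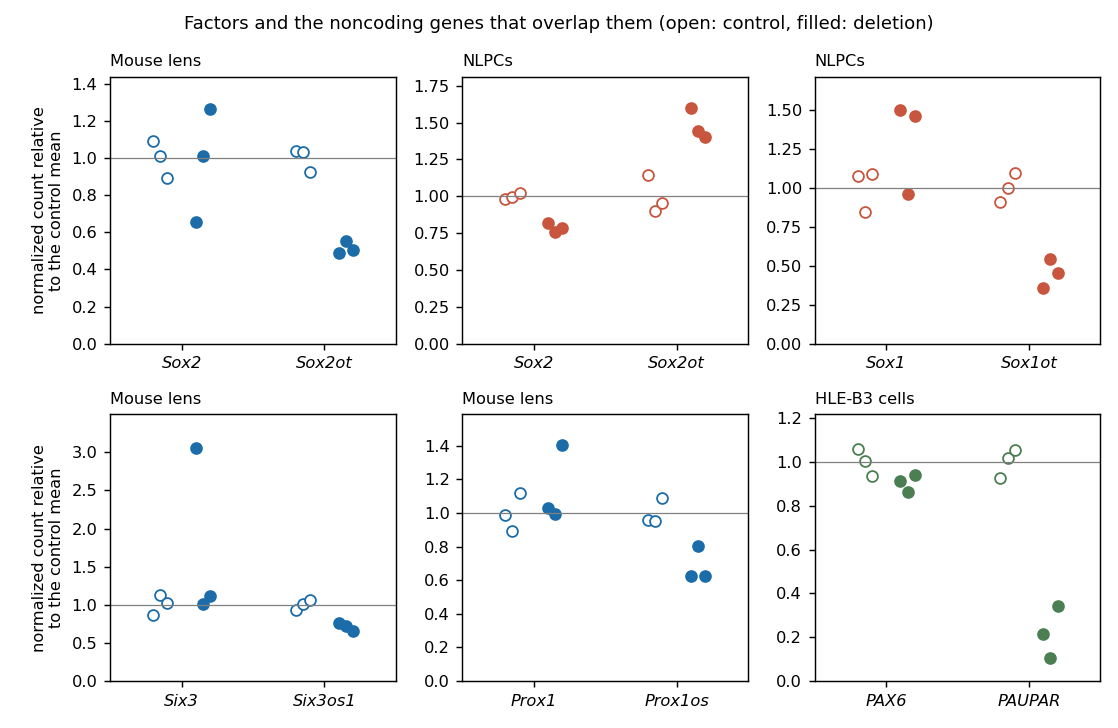
Normalized count of 5 factors and of the noncoding genes that overlap them, relative to the control mean, with 1 point per library. Sox2ot lay under every Ctrl library in all 3 Qk-iCKO lenses, where Sox2 did not, and Sox1ot and PAUPAR lay under every control library in NLPCs and HLE-B3 cells.

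Other factors of the eye field and lens placode were counted as a list. In the lens 1 of 14 tested was called, beside 12.3% of all genes. This was Meis2, a homeodomain partner of Pax6, which fell from 286, 283 and 295 to 151, 217 and 129 (log2 fold change -0.80, adjusted p = 0.0425). Leaving out any library but Qk-iCKO 2 lost that call (adjusted p = 0.0692 to 0.128). The median of the list was 0.81 with 12 of 14 above 0, and 8 of the 12 had a mean under 25 normalized counts in Ctrl lenses. Among these, 3 genes of the optic vesicle, chosen after their values were seen, were high in a pair of Qk-iCKO libraries and low in the other. Lhx2 had 6.29, 14.4 and 0 in Ctrl and 99.4, 110.3 and 3.83 in Qk-iCKO lenses, Rax 27.3, 31.6 and 0.869 and 114, 139.7 and 6.39, and Six6 13.6, 24.4 and 1.74 and 115, 103 and 0, whereas Six3 was high in Qk-iCKO 1 alone. In NLPCs 4 of 16 rose and 2 fell, beside 4.74% of all genes higher and 5.96% lower. Etv5, a transcription factor downstream of FGF signals, rose most (log2 fold change 1.11, adjusted p = 0.00376), and Foxc1 (0.88) and Eya1 (0.75), a phosphatase and coactivator of the placode, rose as well. Sox3 (-1.17, adjusted p = 0.00922), of the same family as Sox1 and Sox2, fell. The call for Sox3 was lost without WT 1, 2 or 3 or Qk-/- 1 (adjusted p up to 0.0695), Foxc1 without WT 1 or 2 (up to 0.0791) and Eya1 without WT 2 or 3 or Qk-/- 1 (up to 0.087). In HLE-B3 cells 7 of 10 rose, among them BMP4 (1.13), FOXC1 (0.70), ETV5 (0.53) and FGFR2 (0.50), and 2 fell, MEIS1 (-0.44) and MEIS2 (-0.43), named after their values were seen. Over all genes 17% were higher and 16.3% lower there. The median of the 10 was 0.49, beside -0.020 for all genes tested.

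Relatives and dimer partners of Maf, Hsf4 and Prox1 were called in 3 of 10 cases in the lens, all higher, beside 12.3% of all genes called and 8.38% higher. Maff, another small Maf gene, rose from 18.9, 12.6 and 6.08 to 105, 69.8 and 61.3 (log2 fold change 2.67, adjusted p = 0.00782), in the lenses in which Mafg fell. Bach1, a repressor that binds DNA as a partner of small Maf proteins, rose from 47.2, 41.5 and 56.5 to 133, 91.9 and 94.6 (1.14, adjusted p = 0.0176). The call for Bach1 was lost without Ctrl 1 (0.0788) or Ctrl 2 (0.0756). In NLPCs 1 of 12 was called, beside 10.7% of all genes, Nfe2l1 (0.36, lost without any library but Qk-/- 2, with adjusted p up to 0.148). In HLE-B3 cells, where 33.3% of all genes were called, 2 of 11 rose (NFE2L1 0.88 and MAFK 0.19, the latter lost without any library but WT 1, with adjusted p up to 0.147) and 3 fell (MAFA -1.07, BACH2 -0.53 and NFE2L2 -0.26).

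Genes commonly described as targets of these factors in the lens were called in 3 of 17 cases in the lens, all lower, beside 12.3% of all genes called and 3.88% lower. Mip, the fibre water channel, fell from 124215, 139000.0 and 150608 to 24013, 62809 and 41130.2 (log2 fold change -1.69, adjusted p = 0.0259). Fgfr3, a receptor of fibre differentiation signals, fell from 2471, 2162 and 2346 to 926, 877 and 912 (-1.36, adjusted p = 0.00146), and Cdkn1c, the cell cycle inhibitor p57, from 1901, 2031 and 2836 to 871, 1170.0 and 1361 (-0.99, adjusted p = 0.0322). Without Ctrl 1, 2 or 3 in turn the calls for Mip (adjusted p up to 0.0978) and Cdkn1c (up to 0.112) were lost, as was Mip without Qk-iCKO 3 (0.0592) and Cdkn1c without Qk-iCKO 2 (0.0725). In NLPCs Cryab (-1.45), Pdgfra (-1.26) and Fgfr3 (-0.89) fell and Ccnd2 (0.43) rose, of 8 tested and beside 10.7% of all genes called. Cryab was lost without WT 1, 2 or 3 or Qk-/- 1 (adjusted p up to 0.107) and Ccnd2 without any library but Qk-/- 2 (up to 0.132). In HLE-B3 cells CRYAB, a small heat shock protein of the lens, rose (0.85, adjusted p = 7.69e-08) and FGFR3 fell (-0.30, adjusted p = 0.0474, and up to 0.216 without any library but WT 1), of 7 tested and beside 33.3% of all genes called. Over the 3 lists, 7 of 41 genes tested were called in the lens, 11 of 36 in NLPCs and 16 of 28 in HLE-B3 cells, against the same shares of all genes. The lens number was 12 with the replicate number as a block, and 2, 2 and 3 without Ctrl 1, 2 and 3. The NLPC number was 4, 3, 4 and 4 without WT 1, 2 and 3 and Qk-/- 1, and 19 without Qk-/- 2.

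The genes whose log2 levels were most like those of Pax6 and Prox1 over the 12 mouse libraries (Pearson's r in the joint table) are given as a description. For Pax6 they were Igflr1, Tsc22d1, Gm14343, Myl12b and Mir31, with r of 0.997 to 0.998, and for Prox1 S100a11, Tmem200b, Rnf10, Crygf and Taf9b, also with 0.997 to 0.998. The 12 points form a lens and an NLPC cluster, so these values follow the difference between the systems. Within the 6 lens libraries the range was 0.74 to 0.93 for the genes named for Pax6 and 0.32 to 0.86 for those named for Prox1, and 7 of the 10 genes were at 0 in all NLPC libraries.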

How the data were processed

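RNA-seq of lenses, NLPCs and HLE-B3 cells was analysed from the raw gene counts that the authors deposited, 1 table per system with 6 libraries each. The submitters' processing notes name STAR 2.6.1b, HISAT2 2.0.4, HTSeq 0.11.0 and featureCounts and the builds mm10 and hg19. Which tool made which table, and the strand setting of the counting, are not given in the sources used here. The members and gene lists were chosen with earlier results of these data known.

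Each table was tested separately in R 4.3.3 with edgeR 4.0.16 (limma 3.58.1): genes passing filterByExpr (minimum count 10, total 15), TMM factors, the quasi-likelihood test and Benjamini-Hochberg adjustment over all genes tested, called at an adjusted p under 0.05. A joint fit of the symbols shared by the mouse tables tested the deletion by system interaction and Ctrl lens against WT NLPC. Intervals are 95%. Alternatives were RLE size factors, total counts alone, TMM without crystallins, other count filters, DESeq2 1.42.0, a replicate block and each library left out in turn. The scripts were tested on simulated data. Deviations of same-numbered control and deletion libraries had positive correlations in the lens (0.23, 0.13 and 0.52) and in NLPCs (0.12, 0.32 and 0.15). Those of libraries with different numbers ran from -0.39 to 0.28 in the lens and from -0.30 to 0.23 in NLPCs. The highest of these exceeded some same-numbered values, and the labels give only the number, so pairs are not established. The main test was therefore unpaired, and the block is an alternative. P-values measure the spread between these libraries, which for NLPCs and HLE-B3 cells may be technical. TPM used merged exon lengths of GENCODE models on GRCm38 and GRCh37, found for 93.95% of lens, 99.95% of NLPC and 98.39% of HLE-B3 genes. Named genes were the 10 members, called genes of 3 fixed lists (at most 5 per list and system by size of change), overlapping genes from the annotation, and the 5 genes most like Pax6 and Prox1. Reads carry no molecular identifiers, so counting floors cover counting error only. A few listed genes are counted in their lists but not reported here by name.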

Additional observations from a re-analysis of the deposited data

Results flagged for a closer look

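The effect of the deletion on Maf differed between NLPCs and the lens by 1.79 on the log2 scale, and that on Mafg by 0.88, both by the interaction test in the joint fit of the 12 mouse libraries. Maf was higher in 3 of 3 libraries labelled Qk-/- and overlapped Ctrl in the lens. Mafg was lower in 3 of 3 Qk-iCKO lenses and overlapped WT in NLPCs. Qk itself was not lower in the libraries labelled Qk-/-, and its part in these differences was not tested.

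Maf also moved in opposite directions in NLPCs and HLE-B3 cells, with every library of each deletion group on its own side of the control mean: the log2 fold change was 1.42 in NLPCs and -4.29 in HLE-B3 cells. Six3 did so in the lens and HLE-B3 cells, with log2 fold changes of 0.81 and -2.42. These differences between a mouse and a human system were not tested, and the lens value of Six3 rests on Qk-iCKO 1.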

How the results depend on the processing

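Among the 10 factors, 1 was called in the lens, 2 in NLPCs, 4 in HLE-B3 cells and 2 in the interaction. With scaling to total counts alone these numbers were 0 in the lens, 1 in NLPCs, 5 in HLE-B3 cells, where PAX6 was gained, and 0 in the interaction, with the listed other genes called in the lens at 3 in place of 7. That scaling moved the median of all genes to 0.29 in the lens, 0.089 in NLPCs and -0.076 in HLE-B3 cells, and it turned the sign for Pax6 (0.24), Sox2 (0.18), Maf (0.0082), Hsf4 (0.18) and Pitx3 (0.085) in the lens, Prox1 (0.018) in NLPCs, SOX2 (-0.012) in HLE-B3 cells, and Pax6 in the interaction (-0.16) and in Ctrl lens against WT NLPC (-0.40). Testing every gene with at least 1 count gave 15 listed genes in the lens and 1 factor in the interaction. A minimum of 10 counts in all samples gave 2 factors in HLE-B3 cells, since MAF and SIX3 were then not tested, and turned Prox1 in NLPCs (0.015). DESeq2 called 13 listed genes in the lens, 19 in NLPCs and 2 factors in HLE-B3 cells. Where no setting shows the cause, the cause was not tested.

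With the replicate number as a block the calls were 1 factor in NLPCs, where Sox2 was lost, 12 listed genes in the lens and 2 factors in HLE-B3 cells, whose numbers did not pair the libraries (same-number correlations 0.06, 0.06 and -0.05) and where PROX1 and MAFG were lost. In the interaction Sox1 was gained. No other factor changed its call under the block.

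Leaving out 1 library at a time gave 0 to 1 factors and 2 to 9 listed genes in the lens, 0 to 3 and 3 to 19 in NLPCs, 1 to 3 factors in HLE-B3 cells and 1 to 3 in the interaction. The sign turned over these fits in the lens for Sox2 (-0.27 to 0.19), Hsf4 (-0.16 to 0.17) and Pax6 (-0.13 to 0.018), in NLPCs for Pax6 (-0.021 to 0.065), Prox1 (-0.13 to 0.050) and Hsf4 (-0.53 to 1.38), in HLE-B3 cells for SOX2 (-0.12 to 0.43), and in the interaction for Sox2 (-0.43 to 0.0029), Prox1 (-0.25 to 0.035), Hsf4 (-0.39 to 1.37) and Six3 (-0.18 to 2.09), none of them called in the full fits. Of single-gene values under settings that kept all libraries, 456 kept their direction and side of the threshold, 27 lost and 3 gained a call and 10 turned sign. With 1 library left out, 495 kept both, 98 lost and 2 gained a call and 17 turned sign. The 3 libraries per group and, for MAF, SIX3 and PROX1 in HLE-B3 cells, counts under 200 per library limit the precision, and the lens values rest on libraries in which crystallins took most of the counts.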
